A study of Mus musculus with 12 samples.

Results

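The genes described here are 10 modulators, transcription factors and targets of Wnt signalling, measured by RNA sequencing of mouse chondrocytes. They were chosen by name, as the entries of the deposited expression table whose symbol is Sfrp1, Sfrp2, Frzb, Wif1, Dkk3, Rspo2, Rspo3, Tcf7, Lef1 or Axin2, and all 10 were found among its 17536 genes. The study asked how loss of Runx3 in cartilage changes gene expression in cells of the superficial zone (SFZ) at the joint surface and of the deep zone (DZ) beneath it. Per the study's methods, SFZ cells were released from cartilage at the ends of the femur and tibia by enzymes after tendons and ligaments had been cut away, DZ cells came from a further digestion of what remained, and cells were kept as monolayer cultures. Each zone holds 3 libraries from R3-Cntl mice and 3 from R3-cKO mice, which makes 12 libraries. Per the study, the cells of both zones came from 3 littermate animals per genotype, but the labels tie no library number to an animal. The tests over both genotypes treat the 12 libraries as independent and leave such sharing out, apart from an alternative with the library number as a block. R3-Cntl mice carry floxed Runx3 alleles (Runx3 fl/fl) without Cre. R3-cKO mice are Col2a1-Cre; Runx3 fl/fl, so that Cre is driven by the promoter of a cartilage collagen gene and acts in cells that use it. All mice were 5 days old, and their strain is C57BL/6 in the sample labels and C57BL/6J in the methods.

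Wnt proteins bind Frizzled receptors and their Lrp5 or Lrp6 co-receptors, which stabilises beta-catenin and lets it act with TCF/LEF factors on target genes. Secreted antagonists bind Wnt proteins or their receptors outside the cell, whereas R-spondins amplify the signal by keeping Frizzled receptors at the cell surface. In developing joints, Wnt signalling is known to favour the joint lining and superficial cells over the cartilage fate, and several of its antagonists are made by chondrocytes.

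The values were taken as FPKM, a read abundance per gene length, scaled between libraries. This unit was inferred from the values, whereas the study's methods name quantile normalization and log2 CPM (a count per library size), and levels of different genes compare only if the values are per length. They summed to between 392241 and 429213 per library. Sequencing depth is unknown, so the spread between libraries was the only measure of error. Runx3, the floxed gene, was at 10.7, 5.98 and 6.65 FPKM for R3-Cntl SFZ libraries 1, 2 and 3 against 11.8, 9.07 and 3.42 FPKM for R3-cKO SFZ libraries 1, 2 and 3. In DZ it was at 12.7, 12.7 and 7.66 FPKM for the R3-Cntl libraries against 16.0, 12.7 and 8.14 FPKM for the R3-cKO libraries. Runx3 was therefore not lower in the R3-cKO libraries of either zone, with a log2 difference of −0.04 ± 0.43 (SE) in SFZ and 0.13 ± 0.28 in DZ and limma adjusted p-values of 1 and 0.999. A value per gene sums reads over all exons and cannot tell if the floxed part is there, so these libraries are called libraries labelled R3-cKO wherever a genotype direction is given. The study reported a decrease of the lubricin gene Prg4 in its R3-cKO SFZ cells, by qRT-PCR and by RNA sequencing. For the sequencing it printed a p-value and named no adjustment. In these values Prg4 had the lower mean in the SFZ libraries labelled R3-cKO, 3.85 ± 2.69 against 12.6 ± 8.39 FPKM (SD, n = 3). The groups did not overlap, as for 2.40% of all genes, and the log2 difference of −1.45 ± 0.52 did not pass (limma adjusted p = 1). Its unadjusted limma p was 0.0307, and 34 of 11537 genes had such a p under 0.05.

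Promoter sequence is shown for Sfrp2 and Wif1, which differed between zones, for Frzb, the most abundant of the 5 antagonists in DZ, and for Lef1, whose window holds most of the motif matches. The sequences are from RefSeq on build GRCm38.p6 and give the 250 bases before the annotated transcript start, 5′ to 3′ on the strand of the gene. They lie at chr3:83766071-83766320 (plus strand) for Sfrp2, chr10:121033754-121034003 (plus) for Wif1, chr2:80447397-80447646 (minus) for Frzb and chr3:131156044-131156293 (plus) for window 4 of Lef1. Capitals mark the TCF/LEF core motifs CTTTGA and CTTTGT, which appear here as their reverse complements.
Sfrp2: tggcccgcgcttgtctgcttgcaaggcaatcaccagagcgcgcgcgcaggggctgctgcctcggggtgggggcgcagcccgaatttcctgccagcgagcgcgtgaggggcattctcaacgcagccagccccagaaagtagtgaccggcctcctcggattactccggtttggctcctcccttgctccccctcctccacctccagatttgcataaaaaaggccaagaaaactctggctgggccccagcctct
Wif1: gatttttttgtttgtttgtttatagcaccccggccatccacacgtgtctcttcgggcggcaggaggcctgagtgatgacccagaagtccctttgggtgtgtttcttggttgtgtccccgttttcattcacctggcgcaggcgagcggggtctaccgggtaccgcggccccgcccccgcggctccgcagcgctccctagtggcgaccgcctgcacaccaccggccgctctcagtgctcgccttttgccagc
Frzb: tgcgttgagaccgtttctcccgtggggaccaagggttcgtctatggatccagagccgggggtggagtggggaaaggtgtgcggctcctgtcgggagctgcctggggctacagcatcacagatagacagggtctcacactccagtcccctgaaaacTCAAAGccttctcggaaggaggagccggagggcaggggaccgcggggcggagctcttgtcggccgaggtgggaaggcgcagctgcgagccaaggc
Lef1: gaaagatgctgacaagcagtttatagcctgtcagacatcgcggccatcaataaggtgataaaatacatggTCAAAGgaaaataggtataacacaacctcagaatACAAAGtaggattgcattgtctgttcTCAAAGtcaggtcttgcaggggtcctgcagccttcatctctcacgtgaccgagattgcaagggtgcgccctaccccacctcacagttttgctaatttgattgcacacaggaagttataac
RefSeq windows of 300 bases, from 250 before to 50 after a start, were matched for 6 members, with 10 windows between them. Sfrp1, Dkk3, Rspo2 and Rspo3 are named only. The 10 windows are not independent, since they include windows 1 to 4 of Lef1, of which 1 and 2 overlap. Counted by gene, 2 of the 6 members (Frzb and Lef1) had a TCF/LEF match. CTTTGA or CTTTGT occurred on either strand in 2 of the 10 windows, against 31.2% of 32851 windows of all genes (CTTTGA in 16.0% and CTTTGT in 18.7%). The match in Frzb begins 95 bases before the start, and window 4 of Lef1 holds CTTTGA 180 and 120 bases and CTTTGT 146 bases before it, all on the strand opposite to the gene. The Runx motifs TGTGGT and TGCGGT occurred in 0 of the 10 windows, against 22.4% of all windows (16.8% and 6.5%). A match describes letters only.

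Sfrp2 was the member with the widest zone difference. It encodes a secreted Frizzled-related protein that binds Wnt proteins, and its gene (Entrez 20319) lies at chr3:83570243-83578238 of mm9. In SFZ, Sfrp2 was at 76.3, 321 and 46.7 FPKM for R3-Cntl libraries 1, 2 and 3 against 78.1, 39.1 and 584 FPKM for R3-cKO libraries 1, 2 and 3. In DZ it was at 0.43, 0.66 and 3.25 FPKM for the R3-Cntl libraries against 0.15, 1.01 and 2.33 FPKM for the R3-cKO libraries. The 6 SFZ libraries thus lay above the 6 DZ libraries without overlap, and R3-Cntl SFZ library 2 and R3-cKO SFZ library 3 stood far above the other SFZ libraries. The mean was 191 ± 220 FPKM (SD, n = 6) in SFZ and 1.30 ± 1.22 FPKM in DZ. On the log2(FPKM + 1) scale, on which differences of low genes look smaller than they are, Sfrp2 fell from SFZ to DZ by 5.79 ± 0.66 (SE), with a limma adjusted p of 0.000543. The exact two-sided permutation test gave p = 0.00216, the smallest that 6 against 6 libraries allow when taken as independent. In bulk samples such as these, fewer cells of a type and less RNA per cell cannot be told apart.

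Wif1, a secreted inhibitor that binds Wnt proteins through its WIF domain (Entrez 24117, mm9 chr10:120471016-120537706), was also lower in DZ. Its SFZ values were 49.2, 20.7 and 23.7 FPKM for R3-Cntl against 54.9, 24.6 and 14.7 FPKM for R3-cKO libraries. Its DZ values were 3.73, 8.29 and 22.4 FPKM for R3-Cntl against 1.77, 9.60 and 4.21 FPKM for R3-cKO libraries. R3-Cntl DZ library 3 reached the SFZ range, so the zones overlapped, while the other 5 DZ libraries were below all SFZ libraries. Wif1 averaged 31.3 ± 16.5 FPKM in SFZ and 8.33 ± 7.49 FPKM in DZ (SD, n = 6). The log2 difference, DZ minus SFZ, was −1.98 ± 0.48 with a limma adjusted p of 0.0136, and the exact permutation p was 0.00649. Unlike Sfrp2, Wif1 was at its lowest SFZ value in R3-cKO library 3, the library in which Sfrp2 was highest.

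Dkk3 belongs to the Dickkopf family by sequence, and its effect on Wnt signalling differs between cell types. It was at 17.95, 79.9 and 49.3 FPKM for R3-Cntl SFZ libraries against 35.4, 37.1 and 107 FPKM for R3-cKO SFZ libraries. In DZ, Dkk3 spanned 0.20, 7.10 and 34.3 FPKM for R3-Cntl against 7.42, 10.3 and 34.4 FPKM for R3-cKO libraries. Library 3 of each genotype was the high one in DZ, above R3-Cntl SFZ library 1, so the zones overlapped. DZ was lower than the SFZ library of the same genotype and number in 6 of 6 cases, but the log2 difference of −2.22 ± 0.74 did not pass the threshold (limma adjusted p = 0.0514; exact permutation p = 0.0130, n = 6 per zone). The call depends on the replicate block. With the library number as a block the limma adjusted p was 0.00882 over both genotypes, where the numbers did not pair every library. In the R3-cKO libraries alone, where they did, the adjusted p was 0.0284 (−1.83 ± 0.12). Without the block it was 0.302 there (−1.83 ± 0.66). That pairing was read from the same expression values, since the labels tie no number to an animal, so the call is no independent support. In the R3-Cntl libraries alone, where the numbers did not pair, Dkk3 was not called with the block (−2.60 ± 0.70, adjusted p = 0.0929). Without R3-Cntl DZ library 3 the adjusted p was 0.0202, and without R3-cKO DZ library 3 it was 0.0432. Over all alternatives run, the adjusted p of Dkk3 lay between 0.00882 and 0.217.

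Frzb, also called Sfrp3, is a secreted Frizzled-related protein known from cartilage (Entrez 20378, mm9 chr2:80252127-80287782, minus strand). Frzb was at 57.5, 26.1 and 23.5 FPKM for R3-Cntl SFZ against 50.1, 26.8 and 71.2 FPKM for R3-cKO SFZ libraries. In DZ, R3-Cntl libraries held 91.9, 39.7 and 101 FPKM of Frzb and R3-cKO libraries 68.4, 22.4 and 66.8 FPKM. Most DZ values were high, but library 2 of both genotypes was low and the zones overlapped. The mean was 42.5 ± 19.9 FPKM in SFZ and 65.0 ± 29.9 FPKM in DZ, and the log2 difference of 0.57 ± 0.40 was within the spread between libraries (limma adjusted p = 0.331), at 1.10 ± 0.46 within R3-Cntl (adjusted p = 0.178) and 0.03 ± 0.53 in the libraries labelled R3-cKO (adjusted p = 0.988), and the interaction did not pass (adjusted p = 0.999). Sfrp1, a further Frizzled-related antagonist, ranged from 1.71 to 9.99 FPKM in SFZ and from 1.04 to 2.49 FPKM in DZ. Its highest values were in R3-Cntl SFZ library 2 and R3-cKO SFZ library 3, the other libraries of both zones overlapped, and the log2 difference was −0.66 ± 0.34 (limma adjusted p = 0.176).

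**Figure D1:**
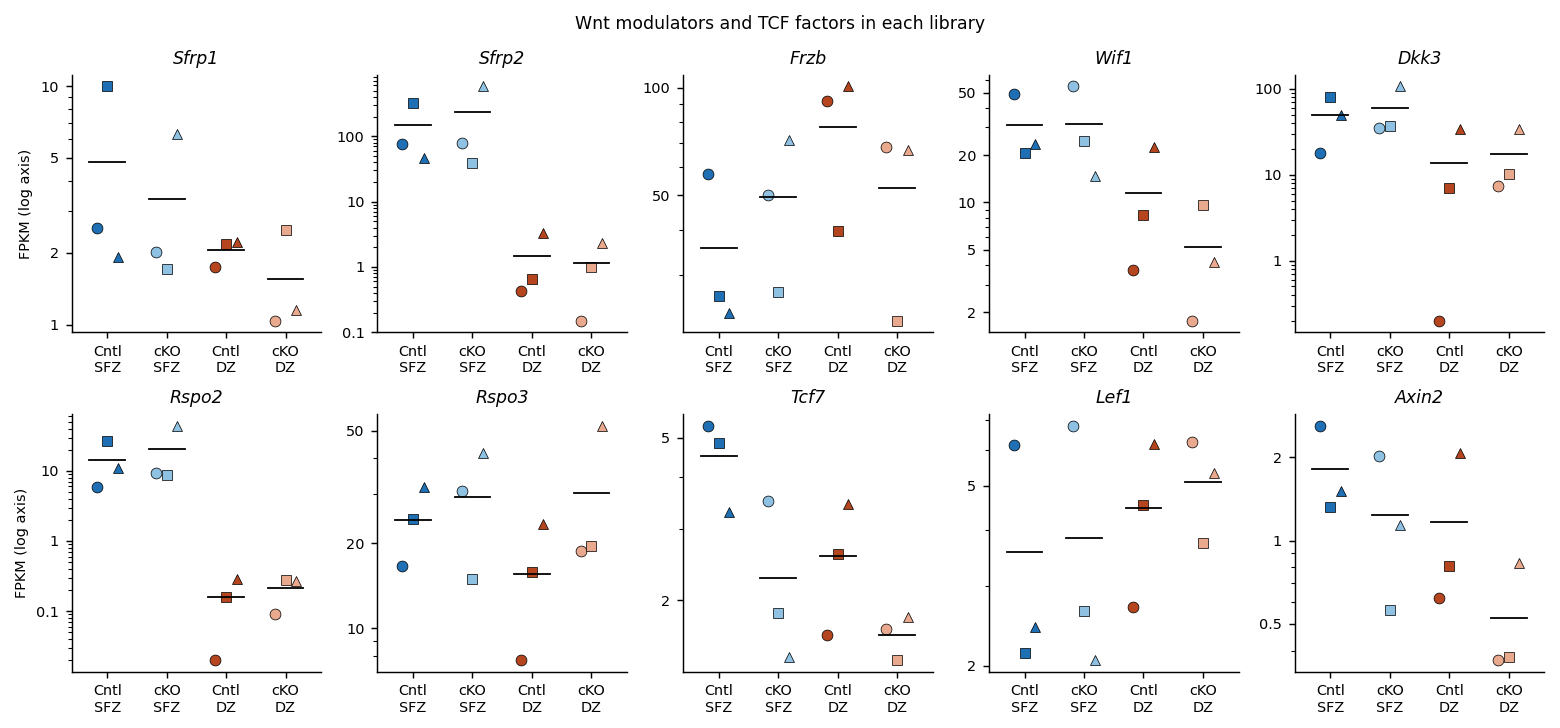
FPKM of the 10 members in each library (log axis), by genotype and zone. Circles, squares and triangles are libraries 1, 2 and 3 and each bar is the mean of 3 libraries. Sfrp2 and Rspo2 do not overlap between zones, and each of the 10 members overlaps between genotypes within each zone.

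Because Sfrp2 fell away in DZ while Frzb did not, the make-up of the 5 antagonists differed between zones. Frzb was the most abundant antagonist in 6 of 6 DZ libraries, with 48.9 to 93.8% of their summed FPKM (median 65.2%). In SFZ, Sfrp2 was the most abundant in 5 of 6 libraries, with 30.2 to 74.5% of the sum (median 36.5%), and Dkk3 was the most abundant in R3-Cntl library 3. Sfrp2 made up 0.190 to 2.21% of the sum in DZ, and Frzb made up 5.70 to 28.3% in SFZ, so neither share overlapped between zones. The shares of Wif1 (1.87 to 24.9% in SFZ, 2.25 to 21.0% in DZ) and Dkk3 (8.83 to 34.0%, 0.204 to 31.6%) overlapped. The 5 antagonists together summed to 323 ± 255 FPKM in SFZ and 92.1 ± 42.0 FPKM in DZ (SD, n = 6). These shares are a description, without a test.

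**Figure D2:**
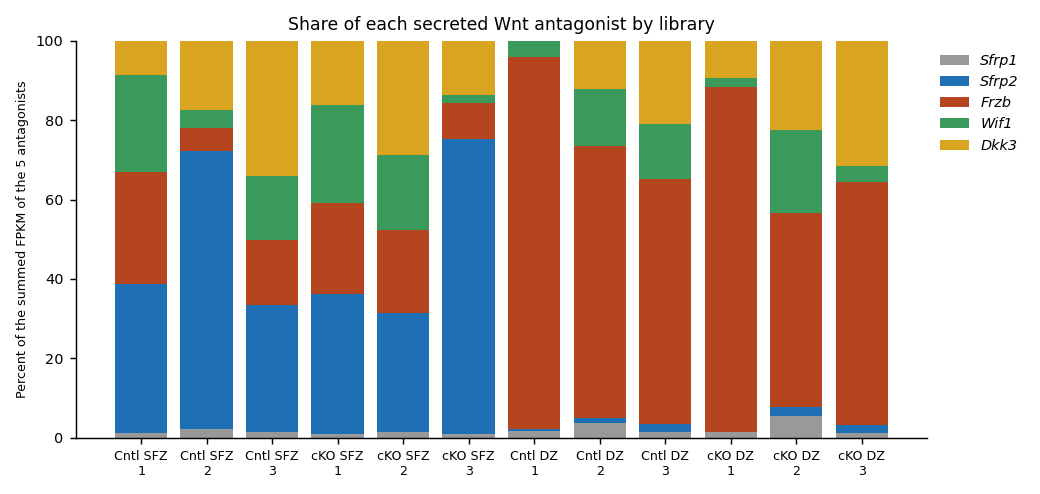
Share of each of the 5 secreted antagonists in their summed FPKM (percent), by library. Frzb holds 48.9 to 93.8% in DZ libraries and Sfrp2 holds 30.2 to 74.5% in SFZ libraries.

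Rspo2 and Rspo3 encode R-spondins, which bind Lgr4, Lgr5 or Lgr6 and enhance the response to Wnt proteins. Rspo2 (Entrez 239405, mm9 chr15:42852357-43002364, minus strand) was at 5.97, 26.7 and 11.03 FPKM for R3-Cntl SFZ against 9.21, 8.62 and 44.5 FPKM for R3-cKO SFZ libraries. The DZ libraries held 0.02, 0.16 and 0.29 FPKM for R3-Cntl against 0.09, 0.28 and 0.27 FPKM in those labelled R3-cKO. Rspo2 was thus near 0 in all 6 DZ libraries, the zones did not overlap, and the highest SFZ libraries were the same as for Sfrp2. Rspo2 fell from SFZ to DZ by 3.65 ± 0.40 on the log2(FPKM + 1) scale. It passed the filter on low values (at least 1 FPKM in at least 3 libraries) only through SFZ, so its limma result with that filter is not used as support. With no filter the limma adjusted p was 0.00092, and the exact permutation p, which needs no filter, was 0.00216 (n = 6 per zone). Axin2 passed it mainly through SFZ, with 5 SFZ libraries and 1 DZ library at or above 1 FPKM.

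Rspo3 did not follow Rspo2. Rspo3 was at 16.6, 24.5 and 31.6 FPKM for R3-Cntl SFZ against 30.7, 15.0 and 41.6 FPKM for R3-cKO SFZ libraries. In DZ it was at 7.74, 15.8 and 23.3 FPKM for R3-Cntl against 18.8, 19.6 and 52.2 FPKM for R3-cKO libraries. The zones overlapped widely, R3-cKO DZ library 3 was the highest of all 12, and the log2 difference of −0.34 ± 0.36 was smaller than its error (limma adjusted p = 0.523). In DZ, Rspo3 stood at 22.9 ± 15.3 FPKM and Rspo2 at 0.185 ± 0.113 FPKM (SD, n = 6).

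Tcf7 and Lef1 encode TCF/LEF factors, which bind DNA and act with beta-catenin, and both are also targets of the pathway in many tissues. Tcf7 was at 5.36, 4.87 and 3.29 FPKM for R3-Cntl SFZ, at 3.51, 1.86 and 1.45 FPKM for R3-cKO SFZ, at 1.65, 2.60 and 3.45 FPKM for R3-Cntl DZ and at 1.70, 1.43 and 1.82 FPKM for R3-cKO DZ libraries. The 3 highest values were all in SFZ, but the zones overlapped and the log2 difference of −0.45 ± 0.18 did not pass (limma adjusted p = 0.0965; exact permutation p = 0.117, n = 6 per zone). Lef1 ranged from 2.06 to 6.79 FPKM in SFZ and from 2.70 to 6.25 FPKM in DZ. Its SFZ libraries fell into a high pair, library 1 of each genotype (6.14 and 6.79 FPKM), and 4 libraries between 2.06 and 2.64 FPKM, and the log2 difference was 0.38 ± 0.28 (limma adjusted p = 0.352).

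Axin2, a scaffold of the beta-catenin destruction complex that Wnt signalling induces, is often used as a readout of the pathway (Entrez 12006, mm9 chr11:108781663-108812097). It was at 2.61, 1.32 and 1.51 FPKM for R3-Cntl SFZ, at 2.03, 0.56 and 1.14 FPKM for R3-cKO SFZ, at 0.62, 0.81 and 2.07 FPKM for R3-Cntl DZ and at 0.37, 0.38 and 0.83 FPKM for R3-cKO DZ libraries. Most SFZ values were above most DZ values, with overlap through R3-Cntl DZ library 3 and R3-cKO SFZ library 2. The log2 difference was −0.46 ± 0.21, with a limma adjusted p of 0.127 and an exact permutation p of 0.0909 (n = 6 per zone). Without R3-Cntl DZ library 3 it was −0.59, but Axin2 then passed the filter only through SFZ, so that call is not used as support. Over all alternatives run the limma adjusted p lay between 0.0417 and 0.444, and 0.0417 comes from a fit with the same limit.

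By mean FPKM, the order of the members in SFZ was Sfrp2 (191), Dkk3 (54.5), Frzb (42.5), Wif1 (31.3), Rspo3 (26.7), Rspo2 (17.7), Sfrp1 (4.08), Lef1 (3.70), Tcf7 (3.39) and Axin2 (1.53). The libraries of each member overlapped with those of its neighbour in this order. The DZ order was Frzb (65.0), Rspo3 (22.9), Dkk3 (15.6), Wif1 (8.33), Lef1 (4.79), Tcf7 (2.11), Sfrp1 (1.81), Sfrp2 (1.30), Axin2 (0.847) and Rspo2 (0.185). Here Axin2 and Rspo2 did not overlap and the other neighbours did. Sfrp2 thus held the first place in SFZ and the eighth in DZ.

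Over both genotypes, the zone comparison tested 11765 genes in a limma model with genotype as a covariate, and all 10 members were tested. Of these, 3 were lower in DZ (Sfrp2, Wif1 and Rspo2) at an adjusted p under 0.05, against 18.9% of all genes. Rspo2 entered the test only through SFZ, so it is set apart, and of the other 9 members 2 were lower. In the other direction 0 of 10 members were higher in DZ, against 4.30% of all genes, and the 6 members with an unadjusted limma p under 0.05 (Rspo2 and, apart from it, Sfrp2, Wif1, Dkk3, Tcf7 and Axin2) were all lower in DZ, where 4363 of 11765 genes had such a p and 3509 of them were lower. Values did not overlap for 2 of 10 members lower in DZ (Sfrp2 and, set apart as above, Rspo2), against 9.71% of all genes, and for 0 of 10 higher in DZ, against 1.64%. The median log2 difference was −0.56 for the members and −0.14 for all genes. The zone split of all genes depends on scaling. It was 506 higher and 2219 lower in DZ as deposited, 1237 and 915 after quantile normalization (median of all genes 0.03), and 1053 and 1088 with median-of-ratios factors (median 0.00). Sfrp2 and Wif1 were lower in DZ and past the threshold under all 3 scalings, at −5.63 and −1.80 with quantile normalization and −5.66 and −1.84 with median-of-ratios factors, and no member changed sign.

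**Figure D3:**
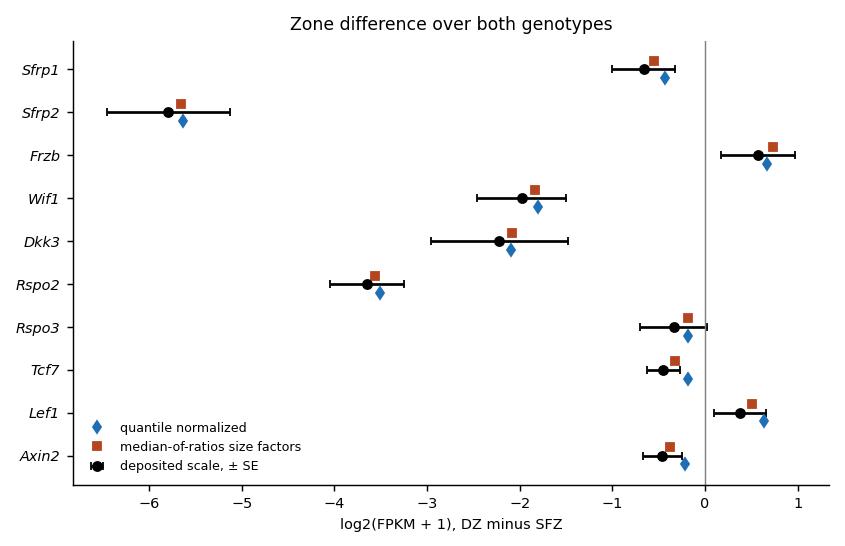
Log2 difference (DZ minus SFZ) of each member on the log2(FPKM + 1) scale over both genotypes. Black circles are the deposited scaling with bars of 1 SE, diamonds quantile normalization and squares median-of-ratios factors. Sfrp2, Rspo2, Dkk3 and Wif1 lie furthest below 0 over both genotypes, at −5.79, −3.65, −2.22 and −1.98, and of these Dkk3 did not pass the threshold.

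Within R3-Cntl mice alone, 3 SFZ against 3 DZ libraries, limma called 2 of 10 members, against 1.24% of 11336 genes. These were Sfrp2 (−5.62 ± 0.75) and Rspo2 (−3.52 ± 0.47), each lower in DZ with an adjusted p of 0.048. Rspo2 passed the filter here only through SFZ and Sfrp2 mainly so, with 1 DZ library at or above 1 FPKM, so the count is no support for a difference. Both calls were lost, with a count of 0 members, with no filter, a mean of at least 10 FPKM (where Rspo2 was not tested), a pseudocount of 5, quantile normalization or median-of-ratios factors, and also without any 1 of R3-Cntl SFZ libraries 2 and 3 and DZ libraries 1, 2 and 3, while 1 member was called without SFZ library 1. In the libraries labelled R3-cKO, 0 of 9 members tested were called by limma, against 0.0176% of 11336 genes, and 4 members and 1602 genes had an unadjusted p under 0.05. Sfrp2 (−5.96, adjusted p = 0.102) and Rspo2 (−3.77, adjusted p = 0.0996) again had the widest differences and passed the filter only (Rspo2) or mainly (Sfrp2, with 2 DZ libraries at or above 1 FPKM) through SFZ, and Axin2 was not tested. With the library number as a replicate block, limma called Dkk3 (−1.83 ± 0.12, adjusted p = 0.0284). It also called Sfrp2 (adjusted p = 0.0335) and Rspo2 (adjusted p = 0.0417), to which the same limit of the filter applies. The numbers paired the R3-cKO libraries of both zones only by correlations of the same values, so these calls are no independent support. The zone difference itself was not shown to differ between genotypes: the limma interaction called 0 of 10 members and 0 of 11765 genes (0%), with 0 members and 99 genes at an unadjusted p under 0.05.

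Between genotypes, which the study set out to compare, 0 of 10 members were called in SFZ by limma, against 0% of 11537 genes. At an unadjusted p under 0.05 there were 34 genes, among them 1 member. That member was Tcf7, which was lower in the SFZ libraries labelled R3-cKO by mean (2.27 ± 1.09 against 4.51 ± 1.08 FPKM, SD, n = 3). Its groups overlapped, since library 1 labelled R3-cKO (3.51 FPKM) lay above R3-Cntl library 3 (3.29 FPKM). The log2 difference was −0.78 ± 0.27 with a limma adjusted p of 1, and the exact permutation p was 0.2, where 3 against 3 libraries cannot go below 0.1. Groups overlapped for all 10 members in SFZ, while 2.40% of all genes did not overlap. The other log2 differences in SFZ ranged from −0.35 ± 0.30 for Axin2 to 0.47 ± 0.46 for Frzb. For Sfrp2 the difference was 0.21 ± 1.15, with an error larger than the difference, and for Rspo2 it was 0.31 ± 0.76.

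In DZ, 8 members passed the filter and Rspo2 and Axin2 did not, and limma called 0 of 8, against 0% of 11091 genes, with 0 members and 404 genes at an unadjusted p under 0.05. Rspo3 was at 15.6 ± 7.80 FPKM for R3-Cntl against 30.2 ± 19.0 FPKM in libraries labelled R3-cKO (SD, n = 3), a log2 difference of 0.87 ± 0.50. Frzb was at 77.5 ± 33.0 and 52.5 ± 26.1 FPKM, a log2 difference of −0.60 ± 0.53. Tcf7 again had the lower mean in libraries labelled R3-cKO, 1.65 ± 0.2 against 2.57 ± 0.9 FPKM, but R3-Cntl library 1 (1.65 FPKM) lay within the range of those libraries. Dkk3 had the widest log2 difference, 1.10 ± 1.21, and it rests on R3-Cntl library 1 at 0.20 FPKM, without which it was −0.17. Each of these had a limma adjusted p of 0.999, and all 10 members overlapped between genotypes, while 8.03% of all genes did not overlap. The genotype and zone comparisons share libraries, so they are not independent of each other.

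**Figure D4:**
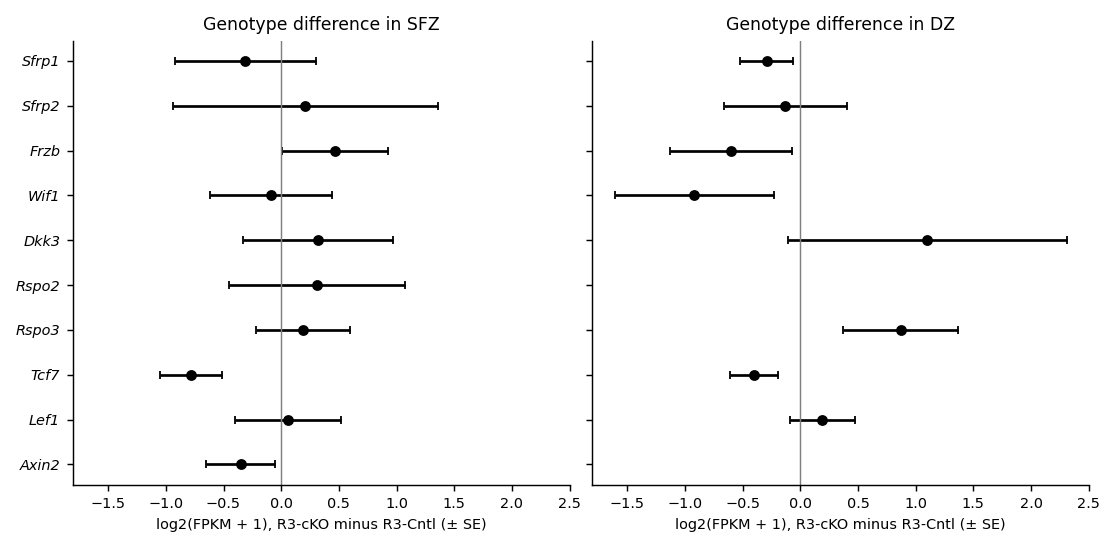
Log2 difference (libraries labelled R3-cKO minus R3-Cntl) of each member in SFZ and in DZ on the log2(FPKM + 1) scale, with bars of 1 SE. Tcf7 in SFZ, at −0.78, has the smallest error relative to its size, and Rspo2 and Axin2 were not tested in DZ.

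The members were set beside 96 genes of the Wnt pathway in 8 lists, which hold the members too. Of these 96 genes, 94 were in the table. Over both genotypes, limma tested 71 of them and called 4 higher and 23 lower in DZ (38.0%), where 4.30% of all genes were called higher and 18.9% lower, with a median log2 difference of −0.26. These counts, and those of the lists below, hold genes that passed the filter only through SFZ, such as Rspo2, Lgr5 and Notum, and are not used as support. The lower calls fell to 13 with quantile normalization and 15 with median-of-ratios factors, while those over all genes fell from 2219 to 915 and 1088, and the 4 higher calls were the same in number. Among Wnt ligands 1 of 5 tested was lower, Wnt5a, the most abundant of them (−1.15 ± 0.14, adjusted p = 0.000695), whose product mostly signals without beta-catenin. Of 2 genes of Wnt secretion neither was called, and Wls, the Wnt carrier, was the more abundant (−0.53 ± 0.18, adjusted p = 0.0513). Receptors divided, with Fzd5 (−1.16), Fzd1 (−1.10), Ror1 (−1.05), Lrp5 (−0.87) and Lrp6 (−0.64) lower and Ror2 (0.67) and Fzd6 (0.60) higher in DZ among 13 tested, and Lrp6 was no longer called under either other scaling. Ryk, the most abundant receptor, was at 66.5 ± 7.16 FPKM in SFZ and 68.0 ± 7.47 FPKM in DZ (SD, n = 6).

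Among 11 secreted antagonists tested, Notum, an enzyme that removes the lipid of Wnt proteins, was lower in DZ beside Sfrp2 and Wif1 (−0.84 ± 0.12), and Cthrc1 was higher (0.98 ± 0.31, adjusted p = 0.0425). Cthrc1 is in that list but is also known to promote Wnt signalling through Ror2, so it is not plainly an antagonist. Igfbp4 was the most abundant of that list, at 438 ± 265 FPKM in SFZ and 200 ± 150 FPKM in DZ, and did not pass (adjusted p = 0.107). Of the R-spondins and their receptors, Lgr5 was lower with Rspo2 (−1.68 ± 0.50) and Lgr4, the most abundant, was higher (0.78 ± 0.18, adjusted p = 0.0115) among 6 tested. Lgr5 and Notum passed the filter only through SFZ, so their calls are given without a p. For beta-catenin and its destruction complex 6 of 14 were lower, with Amer1 (−0.53) and Dvl2 (−0.51) the furthest, but 0 were called by limma after quantile normalization and 1 with median-of-ratios factors. Ctnnb1, which encodes beta-catenin and was the most abundant, was level between zones (0.01 ± 0.08). Among 13 TCF/LEF factors and cofactors 4 were lower, the corepressors Aes (−1.98 ± 0.42, the most abundant) and Tle2 (−1.01), Tcf7l2 (−0.46) and Bcl9l (−0.42), of which 2 were called after quantile normalization and 3 with median-of-ratios factors. Of 12 feedback and target genes tested, Lgr5, Twist1 (−1.37), Notum and Nkd1 (−0.49) were lower, Nkd1 under the deposited scaling alone, while the most abundant, the cyclin gene Ccnd1 (−1.20 ± 0.41, adjusted p = 0.0549), and Axin2 did not pass. Between genotypes limma called 0 of 71 of these genes in SFZ and 0 of 65 in DZ, with 1 and 3 at an unadjusted p under 0.05. In the Runx family, Runx2 was lower in DZ (−0.44 ± 0.10, adjusted p = 0.0107) but not after quantile normalization, and Runx1, Runx3 and Cbfb did not pass.

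Most chondrocyte, fibroblast and macrophage markers differed between zones, while few or no genes of the other marker lists were called. Within SFZ, the summed fibroblast markers were highest in the libraries where 4 of the 10 members were highest. The 9 chondrocyte markers, led by Col2a1, were present in every library and all 9 were higher in DZ (8 after quantile normalization). They summed to 15380, 5228 and 9788 FPKM across R3-Cntl SFZ, 13343, 7899 and 6018 in R3-cKO SFZ, 35693, 22652 and 29573 in R3-Cntl DZ and 24011, 16136 and 29109 in R3-cKO DZ libraries. Of 11 fibroblast, synovium and tendon markers, led by Col1a1, 10 were lower in DZ (9 after quantile normalization). Of these, Dpt, Cd34, Thbs4 and Tnmd passed the filter mainly through SFZ, with 1 or 2 DZ libraries at or above 1 FPKM, so they are set apart, and of the other 7 markers 6 were lower. The remaining marker, Dcn, had a higher mean in DZ and did not pass (1.19 ± 0.40, limma adjusted p = 0.0507), while with median-of-ratios factors it was called higher and 9 markers were called lower. They summed to 2765, 5166 and 2894 FPKM across R3-Cntl SFZ, 2820, 2448 and 6735 in R3-cKO SFZ, 391, 619 and 1808 in R3-Cntl DZ and 344, 593 and 1520 in R3-cKO DZ libraries. In DZ, Dpt was listed at 0 in R3-Cntl library 1, Thbs4 in R3-cKO library 3 and Tnmd in R3-cKO libraries 1 and 3. The highest SFZ libraries for the sum of this list, R3-Cntl library 2 and R3-cKO library 3, were also the highest for Sfrp2, Rspo2, Dkk3 and Sfrp1, and library 3 of each genotype was the highest in DZ for the sum and for Sfrp2 and Dkk3. Within SFZ, Cd34 and Dcn did not follow the sum and the other markers did. Cd34 was low in R3-cKO library 3 (13.9 FPKM). Dcn in R3-Cntl library 2 (121 FPKM) was below library 1 of R3-Cntl (191 FPKM) and R3-cKO (215 FPKM). Wif1, Tcf7 and Lef1 had their lowest SFZ values in R3-cKO library 3. The part of these cells in the zone difference of the members was not tested. Without those 2 SFZ libraries, left out together after the data had been seen, limma called Sfrp2 (−4.82 ± 0.39, adjusted p = 0.000364) and Wif1 (−2.31 ± 0.53, adjusted p = 0.0306). Rspo2, which passed the filter only through SFZ, was at −3.01 ± 0.15, and the calls over all genes went from 2725 to 986. This omission does not address those cells, since the 4 SFZ libraries left held 2448 to 2894 FPKM of the fibroblast list against 344 to 1808 FPKM in DZ.

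**Figure D5:**
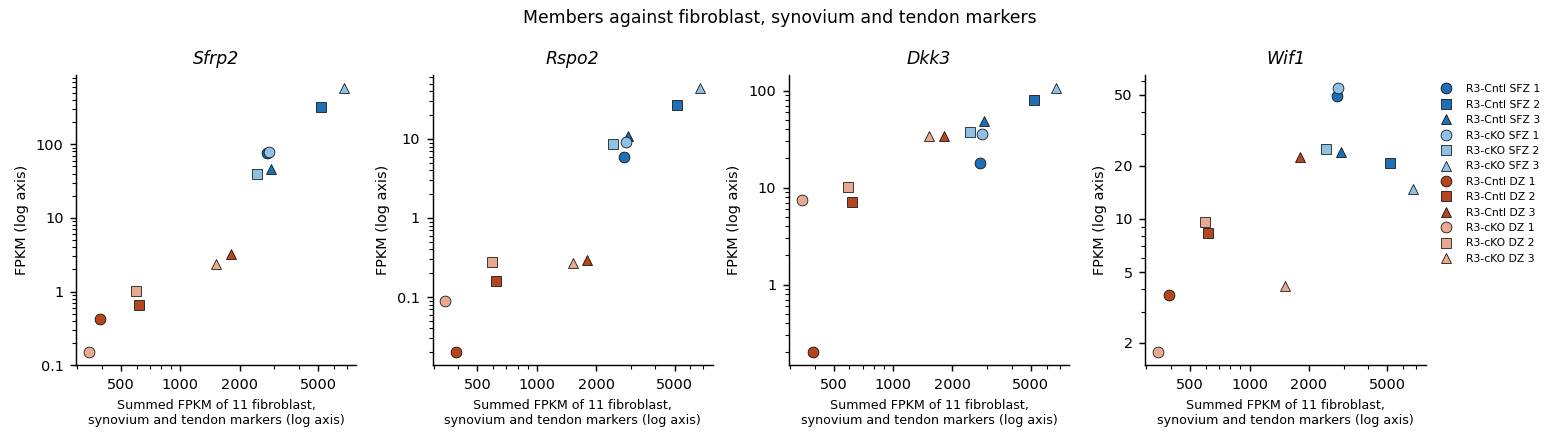
FPKM of Sfrp2, Rspo2, Dkk3 and Wif1 against the summed FPKM of 11 fibroblast, synovium and tendon markers in the 12 libraries (both axes log). Sfrp2 and Rspo2 are highest in R3-Cntl SFZ library 2 and R3-cKO SFZ library 3, where the marker sums are 5166 and 6735 FPKM, and Wif1 is lowest among SFZ libraries in R3-cKO library 3.

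Macrophage markers, led by Lyz2, were lower in DZ for 5 of 5 (3 after quantile normalization), of which Adgre1 and Csf1r passed the filter only through SFZ and C1qa mainly so (1 DZ library at or above 1 FPKM). They summed to 159, 130 and 6.37 FPKM across R3-Cntl SFZ, 126, 13.3 and 58.8 in R3-cKO SFZ, 7.16, 6.03 and 20.8 in R3-Cntl DZ and 5.78, 3.56 and 3.30 in R3-cKO DZ libraries. Lef1 was high in the SFZ libraries numbered 1 (R3-Cntl 159, R3-cKO 126 FPKM of macrophage markers), but not in R3-Cntl SFZ library 2 (130 FPKM), and the part of these cells was not tested. The chondrocyte marker sums were also highest in the SFZ libraries numbered 1 (R3-Cntl 15380, R3-cKO 13343 FPKM), as were Lef1 and Wif1. The other SFZ libraries held 5228 to 9788 FPKM. Across zones Wif1 went the other way, lower in DZ where these sums were higher. Superficial zone markers, led by Abi3bp (−3.08 ± 0.58, adjusted p = 0.00511), had 1 of 4 tested lower in DZ and summed to 235 to 683 FPKM in SFZ and 40.0 to 144 FPKM in DZ libraries. Prg4, the lubricin gene that defines the joint surface, did not pass over both genotypes (−1.32 ± 0.46, limma adjusted p = 0.0576). It passed within R3-Cntl (−2.36 ± 0.38, limma adjusted p = 0.0485). That call was lost with no filter and without R3-Cntl SFZ library 2, DZ library 1 or DZ library 2, where 0 genes were called. Prg4 did not pass in the libraries labelled R3-cKO (−0.27 ± 0.51, limma adjusted p = 0.88), and the interaction did not pass (limma adjusted p = 0.999). Hypertrophic chondrocyte and osteoblast markers, led by Spp1, had 1 of 7 lower in DZ (Bglap, −2.26 ± 0.34) and summed to 355 to 853 FPKM in SFZ and 642 to 1523 FPKM in DZ libraries. Skeletal muscle markers, led by Acta1, reached 78.8 FPKM for R3-Cntl SFZ library 2 and 4.14 to 18.6 FPKM elsewhere, with 0 of 2 called by limma and 0 at an unadjusted p under 0.05. Endothelial markers, led by Pecam1, reached at most 3.92 FPKM (R3-Cntl SFZ library 1), keratinocyte markers, led by Krt15, were below 1 FPKM, and none of either passed the filter.

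For each member, the 3 genes with the most similar pattern over the 12 libraries were found among 11345 genes by Pearson correlation of log2(FPKM + 1). These values describe libraries that share their zone and are given without a test. The closest genes to Sfrp2 were Postn (r = 0.988), Meox1 (0.988) and Vcam1 (0.985), and those to Rspo2 were Myoc (0.988), Meox1 (0.987) and Adamtsl3 (0.986), so Meox1 was close to both and Postn is a marker of the fibroblast list. Dkk3 was closest to Mmp23 (0.981), Chm (0.976) and Yap1 (0.976). Wif1 was closest to Sp3 (0.937), Foxd2 (0.931) and Stk3 (0.922), and Sfrp1 to Hp (0.924), Aoc3 (0.914) and the muscle gene Myl1 (0.902). For Frzb the genes were Ccdc159 (0.972), Tceal3 (0.954) and Rida (0.948), and for Rspo3 they were Foxp4 (0.944), Cdkn2a (0.942) and Ube2r2 (0.938). Tcf7 had Paip2b (0.915), Kcnab2 (0.888) and Tst (0.866), Lef1 had 4930550C14Rik (0.905), Rfx7 (0.895) and Lman2l (0.885), and Axin2 had Sp4 (0.926), Zfp397 (0.920) and Fam20c (0.904). Apart from Meox1, no gene was among the 3 of more than 1 member.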

How the data were processed

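RNA of SFZ and DZ chondrocytes was sequenced by the authors and, per the submitters' processing notes, mapped to mm9 with Bowtie 0.12.2. The authors deposited 1 value per gene and library, taken here as FPKM with TMM scaling (a trimmed mean of log ratios). The unit was inferred, because the smallest values above 0 fell with gene length, from 0.06 for genes of 300 to 600 bp to 0.01 for genes of 2000 to 4000 bp. Counts and depth were not used here.

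Values were analysed as log2(FPKM + 1) in R 4.3.3 with limma 3.58.1 (mean-variance trend, Benjamini-Hochberg adjustment over all genes tested), keeping genes at 1 FPKM or more in 3 or more libraries of a comparison. The procedure was tested on simulated data, and the outcome is not given here. An exact two-sided permutation test was run for each member (Python 3.11.15, scipy 1.17.1, numpy 2.4.6, pandas 2.3.3, figures with matplotlib 3.10.9). Gene positions are from GENCODE on mm9 and promoters from RefSeq on GRCm38.p6. Alternatives were quantile normalization, median-of-ratios factors, no filter, a filter on the mean (10 FPKM), a pseudocount of 0.1 or 5, a replicate block, a single model of all 12 libraries and each library left out.

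Genes named are the members, the most abundant gene of each Wnt list and up to 4 called genes per direction, the 3 genes most similar to each member, the Runx family and the markers. Lrp6 falls outside this rule and was named after its values were seen. Members and lists were chosen with earlier results of these data known. Library numbers paired the DZ libraries of both genotypes (same-number correlations of deviations from group means 0.65, 0.78 and 0.69 over 11359 genes) and the R3-cKO libraries of both zones (0.42, 0.78 and 0.65). This pairing comes from the values, since the labels tie no number to an animal, although the study names 3 littermate animals per genotype as the source of both zones.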

Additional observations from a re-analysis of the deposited data

Results flagged for a closer look

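In DZ, Rspo3 was highest in R3-cKO library 3 (52.2 FPKM), at a distance from the next library of 0.649 of the range over 6 libraries. Axin2 in DZ was highest in R3-Cntl library 3 (2.07 FPKM), at a distance of 0.729 of the range. Both exceed Dixon's critical value for 6 libraries. The highest and lowest value of each member were examined in each zone, 20 groups in all, and 2 were past the critical value, where chance gives about 1 in 20. The cause was not tested.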

How the results depend on the processing

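Over both genotypes, 3 members and 2725 genes passed the zone test. The gene count was 1162 with a mean of at least 10 FPKM, where fewer genes were tested and Rspo2 was left out by the filter, and 986 without R3-Cntl SFZ library 2 and R3-cKO SFZ library 3 together, an alternative chosen after seeing the data. Leaving out single libraries gave 1624 (without R3-Cntl SFZ library 2) to 2899 genes and 3 to 5 members. The count of 5, without R3-Cntl DZ library 3, includes Axin2, which then passed the filter only through SFZ. Leaving out DZ library 3 of both genotypes, also chosen after seeing the data, gave 5 members, adding Dkk3 (adjusted p = 0.0143) and Axin2. There too Axin2 passed the filter only through SFZ, so its calls are not used as support. Sfrp2 and Wif1 stayed lower in DZ and past the threshold under all alternatives run. Rspo2 passed the filter only through SFZ, so its calls under alternatives with the filter are not used as support, and with no filter it was at −3.65 (adjusted p = 0.00092). The cause of these moves was not tested.

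Within R3-Cntl mice, 140 genes and 2 members passed. The counts were 0 genes and 0 members with no filter, 8 and 0 with a mean of at least 10 FPKM, 88 genes with a pseudocount of 0.1, 29 and 0 with a pseudocount of 5, 1 and 0 after quantile normalization, 17 and 0 with median-of-ratios factors, and 798 genes in a single model of all 12 libraries. Leaving out single libraries gave 0 to 505 genes and 0 to 1 members: 505 without SFZ library 1, 0 without SFZ library 2, 3 without SFZ library 3, 0 without DZ library 1, 0 without DZ library 2 and 4 without DZ library 3. In R3-cKO, 2 genes and 0 members passed, against 7 genes with no filter, 0 with a mean of at least 10 FPKM, 1 with a pseudocount of 0.1, 1 with a pseudocount of 5, and 165 genes and 2 members in a single model of all 12 libraries. Leaving out single libraries gave 0 to 5 genes: 0 without SFZ library 1, 1 without SFZ library 2, 5 without SFZ library 3, and 0 without DZ library 1, 2 or 3. The cause was not tested.

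With the library number as a replicate block, 3965 genes and 4 members passed over both genotypes, 831 genes and 2 members in R3-Cntl, and 352 genes and 3 members in R3-cKO. The block changed no other call of a count, and 0 genes passed between genotypes in either zone or in the interaction. Numbers were not taken as pairs for genotype in SFZ (same-number correlations 0.79, −0.09 and −0.42) or for zone in R3-Cntl (0.58, 0.11 and −0.15), so there a block shares only a number. Not every library correlated best with its own number: R3-Cntl SFZ library 2 did so with number 3 (0.45 in R3-cKO SFZ and 0.38 in R3-Cntl DZ) and library 3 with number 2 (0.69 and 0.58). This is a hint from the data and not from the design, and no numbers were crossed.

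Genotype differences that did not pass changed sign in SFZ when single libraries were left out, over ranges of −0.76 to 0.28 for Sfrp1, −0.91 to 1.02 for Sfrp2, −0.58 to 0.34 for Wif1, −0.26 to 0.78 for Dkk3, −0.42 to 0.85 for Rspo2, −0.12 to 0.59 for Rspo3 and −0.35 to 0.43 for Lef1. Without R3-Cntl SFZ library 2 and R3-cKO SFZ library 3 together they were −0.11 for Sfrp2, −0.01 for Frzb, 0.11 for Wif1 and −0.09 for Rspo3. In DZ the ranges were −0.17 to 2.26 for Dkk3, −0.07 to 0.41 for Lef1 and −0.43 to 0.26 for Sfrp2, which was not tested without R3-Cntl DZ library 3 or R3-cKO DZ library 2 or 3. The cause was not tested. Of the member differences over both genotypes and between genotypes, which leave out the zone differences within a genotype, 425 kept their direction and side of the threshold, 22 changed sign and 8 passed the threshold newly. Genotype and interaction counts of members were 0 under all alternatives, by limma. At an unadjusted p under 0.05 there were 1 (SFZ), 0 (DZ) and 0 (interaction) members as reported, and with the replicate block in DZ there were 2, Frzb and Rspo3, among 1830 genes against 404 without it.

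Depth is unknown, so no counting error can be given, and values under 1 FPKM carry an unknown number of reads. With 3 libraries per genotype and zone, an exact test cannot go below 0.1. The libraries are bulk samples of cells separated by successive digestions, in which fibroblast and macrophage markers also differed between zones.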

Other observations

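With the library number as a replicate block in DZ, Frzb was lower in libraries labelled R3-cKO in 3 of 3 pairs, at −0.60 ± 0.09 (log2, SE; limma adjusted p = 0.147). Rspo3 was higher in 3 of 3 pairs, at 0.87 ± 0.19 (limma adjusted p = 0.187). Dkk3 was also higher in 3 of 3 pairs, at 1.10 ± 0.54 (limma adjusted p = 0.377), but by little in library 3 (34.44 against 34.26 FPKM). Axin2, not tested in DZ, was lower in 3 of 3 pairs. It was at 0.37, 0.38 and 0.83 FPKM against 0.62, 0.81 and 2.07 FPKM for R3-Cntl. The other members changed direction between pairs. No tested difference passed the threshold after adjustment. The share of all genes with the same direction in 3 of 3 pairs was not computed, so these directions are a description and not a result about the members. The pairing was itself read from the expression values. With the block, 1830 of 11091 genes had an unadjusted limma p under 0.05, against 404 without it.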
